A study of Homo sapiens with 24 samples.

Results

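The transcripts of 10 genes that set how far a cell can pass from G1 into S phase were followed in 2 B-cell lymphoma lines: the cyclin-dependent kinase (CDK) inhibitors CDKN1A, CDKN1B, CDKN1C, CDKN2A, CDKN2B, CDKN2C and CDKN2D and the D cyclins CCND1, CCND2 and CCND3. They were taken by gene symbol as members of these families, with earlier results of these data known, from a table of 25161 symbols in 25575 rows, and each of the 10 had 1 row. RNA of SU-DHL-4, a diffuse large B-cell lymphoma line, and of DG-75, a Burkitt lymphoma line, was hybridised to 24 Clariom D arrays, a whole-transcriptome microarray. Cells of either line were grown for 72 h with DMSO alone, the solvent of both compounds, or with Entospletinib (Ento) at 1 µM, with AZD5153 (AZD) at 0.01 µM, or with the pair at these concentrations (Ento+AZD). Ento inhibits SYK, a kinase that relays signals of the B-cell receptor, and AZD is a bivalent inhibitor of BET proteins, which read acetylated chromatin. The 8 groups held 3 arrays each, described as biological triplicates and numbered 1 to 3. Every lymphoma type stood as 1 established line, so that line and lymphoma type cannot be told apart.

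D cyclins join CDK4 or CDK6 and start the phosphorylation of the retinoblastoma protein, which releases E2F transcription factors and lets cyclin E with CDK2 carry the cell into S phase. The INK4 inhibitors, which the CDKN2 genes encode, bind CDK4 and CDK6 and keep them from D cyclins, whereas the CIP/KIP inhibitors, encoded by the CDKN1 genes, act mainly on CDK2 complexes and can also help D cyclins to assemble with their kinases. In B cells these genes tie division to growth signals and to maturation. The p27 protein that CDKN1B encodes marks resting lymphocytes and is largely regulated through protein degradation, which arrays do not measure.

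The values of the table were read as log2, the scale that RMA normalization gives, although the base is not stated in words and every fold rests on it. The median of an array lay between 4.89 and 5.14, and the correlation of arrays within a group across rows was 0.981 to 0.992. With 3 arrays a group, their number limits the precision. Replicate 2 of SU-DHL-4 stood apart from replicates 1 and 3 in several of the genes described here. Calls of the 10 genes that rest on it, and calls of the gene lists under Ento+AZD, are given with and without it. The gene lists were not fitted without it between the DMSO groups. B-cell markers, among them CD79A, CD79B, CD22, MS4A1, PAX5, EBF1 and BLNK, had group means of up to 12.3 among SU-DHL-4 groups and 11.8 among DG-75 groups, reached by CD79A. The lowest mean of a T-cell or NK marker was 1.44 (CD2) and the highest 5.83 (NKG7), and means of myeloid markers ranged from 2.32 to 5.72. The table holds no detection values, so none of these can be called absent. Among 6 stromal and erythroid markers DCN, which encodes a matrix proteoglycan, stood at 9.24 ± 0.29 (SD, n = 3) under DMSO in SU-DHL-4, against 4.76 ± 0.39 (n = 3) for DG-75. The summed level of these 6 markers ranged from 9.39 to 10.28 over the SU-DHL-4 arrays and from 8.22 to 8.72 over the DG-75 arrays on the log2 scale, and its part in differences between the lines was not tested.

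Without an inhibitor, the lines differed in the CDK inhibitor CDKN1B and, in opposite directions, in the D cyclins CCND2 and CCND3. CDKN1B and CCND3 were higher in DG-75, and CCND2 was higher in SU-DHL-4. A difference was called when it exceeded 2-fold, an absolute log2 value above 1, and had a limma p below 0.05 after Benjamini-Hochberg adjustment over the table. By this rule 3 of the 10 genes were called between the DMSO groups, against 7.2% of all rows. Without the fold minimum 5 genes passed, against 17.6% of rows. The groups did not overlap in 7 of the 10 genes, 3 of them higher and 4 lower in SU-DHL-4, against 16.1% and 17.2% of rows.

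The DMSO arrays of SU-DHL-4 held CCND3, the D cyclin that proliferating germinal centre B cells rely on, at 7.99, 8.41 and 8.04 in replicates 1 to 3. In DG-75 the values were 9.54, 9.79 and 9.64. The groups did not overlap, and the level in SU-DHL-4 was 2.86-fold lower (log2 difference -1.51, SE 0.137, limma adjusted p = 1.33e-08). CCND2, the D cyclin first induced in stimulated B cells, stood at 6.55, 6.56 and 6.91 for SU-DHL-4 and at 5.35, 5.94 and 5.72 for DG-75, again without overlap. Its difference of 1.00 (SE 0.244, adjusted p = 0.00455) lay at the fold minimum. It came under that minimum with replicate 3 of the SU-DHL-4 DMSO group left out (0.89), with replicate 1 of the DG-75 DMSO group left out (0.84) and when each array's median was subtracted, while its adjusted p stayed under 0.05. CCND1, the D cyclin of mantle cell lymphoma, measured 3.83 ± 0.11 and 4.11 ± 0.39 (SD, n = 3) in the DMSO groups, and its difference of -0.28 had an adjusted p of 0.359.

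CDKN1B measured 6.72, 5.58 and 7.003 under DMSO in SU-DHL-4, and the DG-75 arrays gave 7.73, 8.26 and 7.78. All SU-DHL-4 values were lower, with replicate 2 lowest, and the difference was -1.49 (SE 0.449, adjusted p = 0.0223), or 2.81-fold. Leaving out replicate 2 ended the call, whether that of the SU-DHL-4 DMSO group (-1.06, adjusted p = 0.159) or that of the DG-75 DMSO group (-1.32, adjusted p = 0.0844), as did testing for a change beyond 1.2-fold with treat (adjusted p = 0.0651). CDKN1A, which encodes the stress-induced inhibitor p21, was also lower in SU-DHL-4 (-0.94, SE 0.289, adjusted p = 0.0246), under the fold minimum. It passed that minimum when replicate 3 of the SU-DHL-4 DMSO group (-1.17) or replicate 2 of the DG-75 DMSO group (-1.10) was omitted. CDKN2A, which encodes the inhibitor p16 and, from another reading frame, the protein ARF, differed by -0.63 (SE 0.195, adjusted p = 0.0267).

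Over all treatments the lines stayed apart for CDKN1B and CCND3. The 12 SU-DHL-4 arrays ranged from 4.13 to 7.003 for CDKN1B and the 12 DG-75 arrays from 7.42 to 8.52. For CCND3 the ranges were 7.74 to 8.41 and 9.13 to 10.04. Every DG-75 array was thus above every SU-DHL-4 array for both genes, an order found in 5.31% of all rows, while the other 8 genes overlapped. When the 8 groups were ordered by their mean, the values of neighbouring groups overlapped in all 7 pairs for 7 of the genes. CCND3 had 4 pairs of neighbours without overlap, and CDKN1B and CCND2 had 1 each. Of the CCND3 pairs, DMSO and AZD in SU-DHL-4 were barely parted, at 7.9862 and 7.9849.

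**Figure D1:**
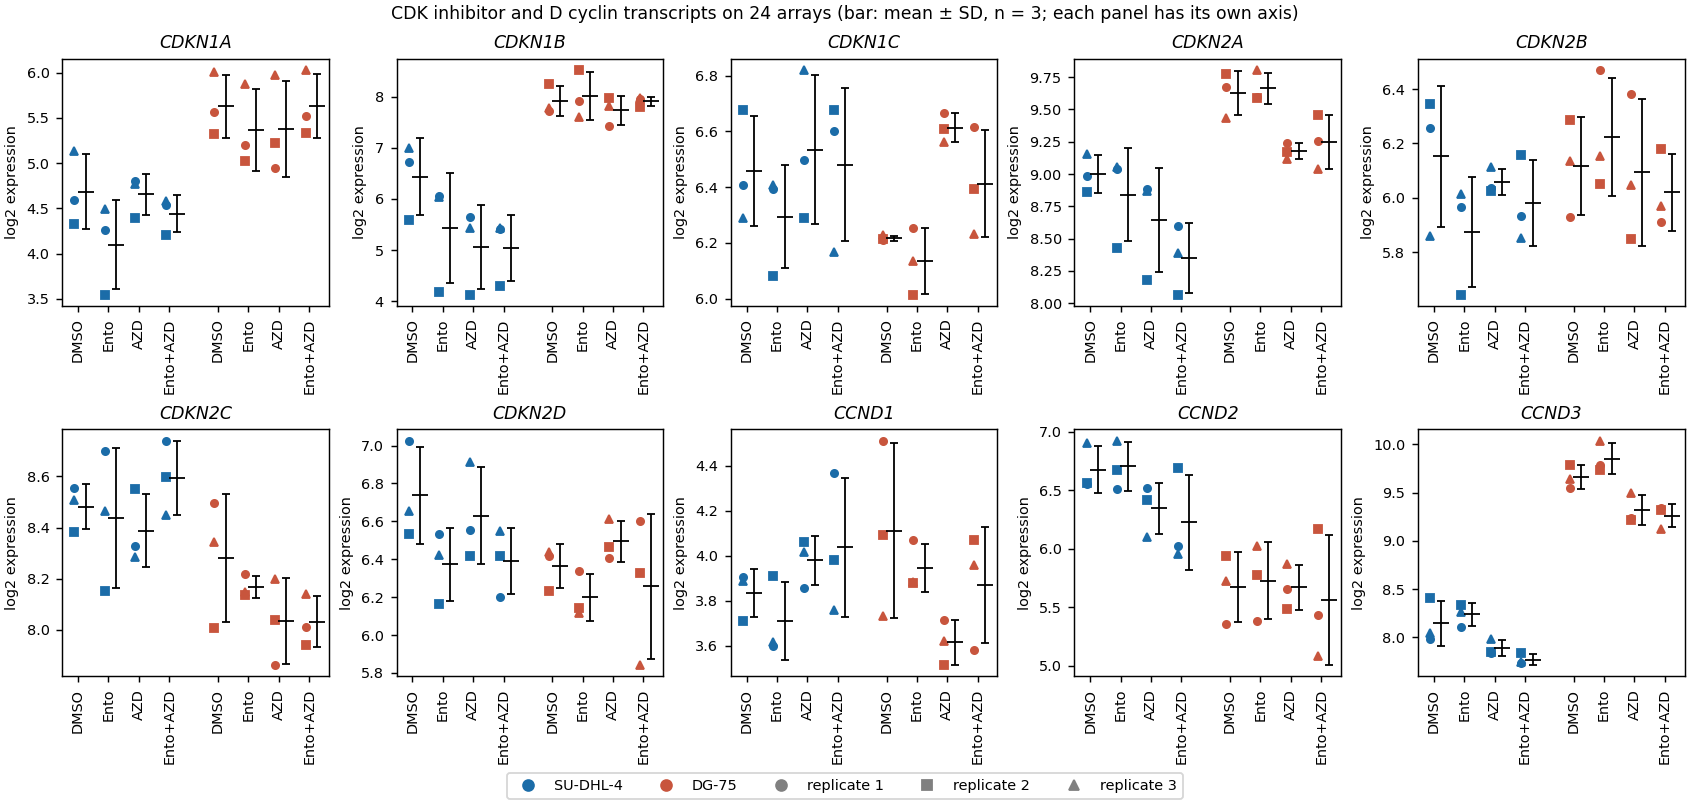
Log2 expression (vertical axis, a separate range in each panel) of the 10 genes by line and treatment; points are single arrays with the shape giving the replicate number, and bars are the mean ± SD of 3 arrays. The CDKN1B and CCND3 points of DG-75 all lie above those of SU-DHL-4, and SU-DHL-4 replicate 2 is the lowest CDKN1B point in each treatment.

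Of the 10 genes CDKN1B was the one called against DMSO, in SU-DHL-4, where it fell under AZD and under Ento+AZD. In DG-75 its changes lay between -0.19 and 0.09 on the log2 scale. The sequence before its transcription start is shown because this is the gene the treatment results turn on. The 250 bases upstream of the CDKN1B start (GRCh38.p14, chr12:12717118-12717367, plus strand) are given 5′ to 3′, with capitals marking CCAAT and the GC box GGGCGG, each searched on both strands.

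CDKN1B: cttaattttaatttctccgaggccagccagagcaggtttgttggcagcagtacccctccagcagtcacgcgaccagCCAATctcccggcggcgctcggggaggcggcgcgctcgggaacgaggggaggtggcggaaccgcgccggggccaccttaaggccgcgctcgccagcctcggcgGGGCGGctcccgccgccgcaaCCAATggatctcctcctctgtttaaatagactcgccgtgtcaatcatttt

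It held 2 CCAAT matches and 1 GC box, and none of CACGTG (an E-box), TGTTTAC (a forkhead motif) or the E2F-type strings TTTCGCGC, TTTGGCGC and TTTCCCGC. Of 35116 promoter windows of this length, 32% held CCAAT, 42.6% GGGCGG, 6.34% the E-box, 2.98% the forkhead motif and 2.32% any of the E2F strings. A match to these letters describes the window and is not a site at which a factor was shown to bind.

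In SU-DHL-4 replicates 1, 2 and 3, CDKN1B went from 6.72, 5.58 and 7.003 under DMSO to 5.64, 4.13 and 5.43 under AZD. All same-numbered differences were negative (-1.07, -1.45 and -1.58), although the groups overlapped because the DMSO array of replicate 2 lay between the AZD arrays of the other two numbers. The fitted fall was 2.58-fold (log2 fold change -1.37, SE 0.175, adjusted p = 0.0312). It was the 1 gene of the 10 called there under AZD, against 0.18% of all rows. The call held in 7 of 19 alternatives, with log2 fold changes between -1.51 and -1.24 and adjusted p between 0.003 and 0.55, and under quantile normalization or subtraction of array medians 0 of the 46 called rows of this comparison were left. Less CDKN1B signal in bulk RNA can come from fewer cells that express it or from less of it per cell, and arrays cannot tell these apart.

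Under Ento+AZD the values were 5.40, 4.30 and 5.43, so that all 3 arrays lay below all DMSO arrays. The fall was 2.62-fold (-1.39, SE 0.175, adjusted p = 0.00478), and the same-numbered differences were -1.31, -1.28 and -1.57. This was again 1 gene of 10, against 1.19% of rows, and the call held in 17 of 19 alternatives. Ento alone gave 6.07, 4.18 and 6.03, which overlapped with DMSO, and its log2 fold change of -1.01 (SE 0.175) did not pass at an adjusted p of 0.0738. Among the 10 genes 0 were called by limma under Ento in this line, against 0.0508% of rows, and 2 had an unadjusted p under 0.05.

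In the fit the single-agent changes of CDKN1B summed to a larger fall than that under both compounds, a departure that did not pass. In SU-DHL-4 replicate 2 the arrays under Ento, AZD and Ento+AZD read 4.18, 4.13 and 4.30, below the lowest array median of 4.89. Whether such low readings limit a further fall was not tested. The departure from additivity was 0.99 on the log2 scale (SE 0.248, 95% interval 0.45 to 1.52), with an adjusted limma p of 0.96. By limma 0 of the 10 genes and 0% of rows were called in this contrast in either line, with 1 gene in each at an unadjusted p under 0.05 (CDKN1B here and CDKN1A in DG-75). Ento+AZD differed from AZD alone by -0.02. The 3 comparisons share DMSO arrays.

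These CDKN1B calls rested on the replicate number in the fit. Within groups CDKN1B had an SD of 0.84 in SU-DHL-4, at the 99.9th percentile of all rows, and 95.2% of that spread went with the number, against 25.8% for the median row. The means by number over the 4 treatments were 5.96, 4.55 and 5.97. After the number was fitted the SD was 0.21, at the 45.8th percentile. Without the number the fold changes were the same and the adjusted p was 0.457 for AZD and 0.304 for Ento+AZD, so neither was called. Without all arrays of replicate 2 both calls were kept (-1.32, adjusted p = 0.0499 and -1.44, adjusted p = 0.037). Without replicate 3 neither was (adjusted p = 0.55 and 0.107), and without replicate 1 only that for Ento+AZD was kept (adjusted p = 0.243 and 0.0324).

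Proliferation genes moved with the same number. The 20 proliferation readouts (MKI67, PCNA, MCM and mitotic genes) deviated from their group means by a median of -0.62 in SU-DHL-4 replicate 2, by 0.17 in replicate 1 and by 0.45 in replicate 3, while the median over all rows was -0.0066 in replicate 2. Their part in the CDKN1B result was not tested. In DG-75 the CDKN1B means by number were 7.75, 8.14 and 7.79, so that replicate 2 was highest there.

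**Figure D2:**
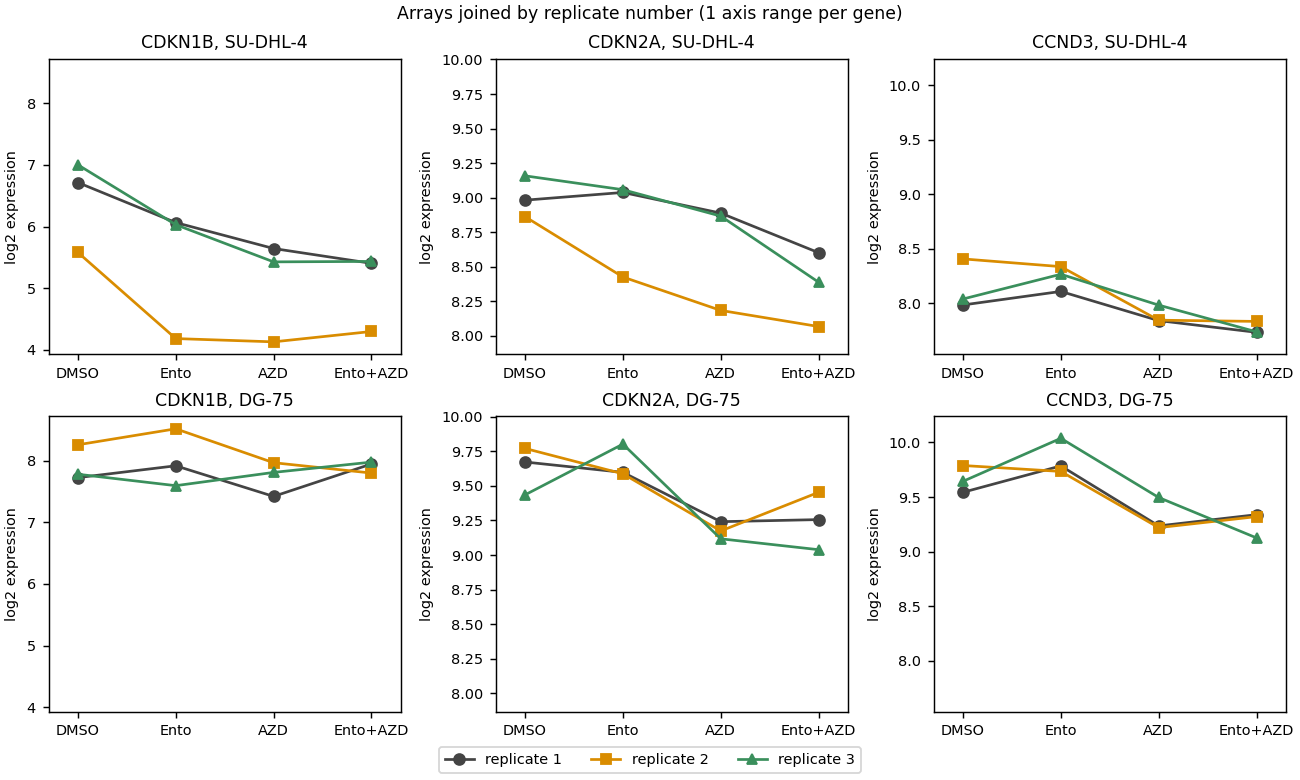
Log2 expression (vertical axis, 1 range per gene) of CDKN1B, CDKN2A and CCND3 by treatment, with arrays of the same replicate number joined by a line; SU-DHL-4 is above and DG-75 below. The CDKN1B line of SU-DHL-4 replicate 2 runs below the other two in every treatment, and all 3 lines are lower at AZD and at Ento+AZD than at DMSO.

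DG-75 held CDKN1B at 7.92 ± 0.29 under DMSO, 8.01 ± 0.47 under Ento, 7.73 ± 0.28 under AZD and 7.91 ± 0.10 under Ento+AZD (SD, n = 3). The fitted changes were 0.09, -0.19 and -0.01. With Ento+AZD the 95% interval reached from -0.45 to 0.42, which leaves out a fall as large as that in SU-DHL-4. The change in SU-DHL-4 minus that in DG-75 was -1.37 under Ento+AZD (SE 0.269, adjusted p = 0.0779), -1.18 under AZD (SE 0.269, adjusted p = 0.285) and -1.10 under Ento (SE 0.269, adjusted p = 0.637) when limma was run on all 24 arrays. A difference between the lines in response did therefore not pass for CDKN1B. By limma 0 of the 10 genes were called in these comparisons of the lines, against 0.0352%, 0% and 0.00782% of rows, with 1, 2 and 1 genes at an unadjusted p under 0.05. For Ento+AZD the difference was called with quantile normalization (adjusted p = 0.0339), with a trended and robust variance prior (0.0282) and with replicate 2 of DG-75 Ento+AZD left out (0.0284).

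CDKN1A was not called in any treatment comparison. Under Ento it read 4.26, 3.55 and 4.49 in SU-DHL-4, against 4.59, 4.33 and 5.14 under DMSO. The groups overlapped, all same-numbered differences were negative, and the log2 fold change of -0.59 (SE 0.163) had an adjusted p of 0.354. Under AZD and Ento+AZD it changed by -0.03 and -0.24. Its mean over the SU-DHL-4 arrays was low, at percentile 42.5 of rows. As with CDKN1B in SU-DHL-4, most of the CDKN1A spread within groups followed the replicate number there (81.2%), and replicate 2 was the lowest array of each SU-DHL-4 group. In DG-75 the share was 91% for CDKN1A, against 45.3% for CDKN1B. In DG-75 the CDKN1A changes were -0.26, -0.25 and 0.00 under Ento, AZD and Ento+AZD.

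CDKN1C, an imprinted gene that encodes the inhibitor p57, was the one CIP/KIP member with higher readings under AZD. In DG-75 it read 6.21, 6.21 and 6.23 under DMSO and 6.67, 6.61 and 6.56 under AZD, without overlap, but the log2 fold change of 0.40 (SE 0.129) did not pass (adjusted p = 0.185). Against Ento the AZD arrays stood 0.48 higher (adjusted p = 0.118). In SU-DHL-4 the CDKN1C groups overlapped under every treatment, with changes between -0.16 and 0.08.

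Of the INK4 inhibitors, CDKN2A had negative changes under AZD and Ento+AZD in both lines, of which that under Ento+AZD in SU-DHL-4 passed on p alone, and the other three did not pass in any treatment. CDKN2A is transcribed from alternative first exons for ARF and p16, and its single row does not separate them. The windows before the upstream start (GRCh38.p14, chr9:21995325-21995574, minus strand) and before the downstream start (chr9:21974858-21975107, minus strand) are given with the same capitals. A link between these letters and the changes of CDKN1B or CDKN2A was not tested.

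CDKN2A, upstream start: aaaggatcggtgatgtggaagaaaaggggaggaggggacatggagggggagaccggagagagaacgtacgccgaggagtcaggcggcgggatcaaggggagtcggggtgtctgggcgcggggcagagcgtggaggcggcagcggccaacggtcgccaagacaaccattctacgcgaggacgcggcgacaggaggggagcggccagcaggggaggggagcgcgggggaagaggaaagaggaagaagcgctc
CDKN2A, downstream start: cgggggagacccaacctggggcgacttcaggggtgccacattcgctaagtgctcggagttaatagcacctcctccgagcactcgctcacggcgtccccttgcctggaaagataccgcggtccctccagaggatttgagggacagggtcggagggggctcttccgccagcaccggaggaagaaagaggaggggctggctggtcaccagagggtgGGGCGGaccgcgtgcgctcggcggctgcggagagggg

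Neither window held CCAAT, and GGGCGG occurred once, before the downstream start. Promoter windows were found for 7 of the 10 genes, 12 windows in all. CCAAT occurred also before CDKN2D, 1 of 3 starts of CDKN2C and 2 of 3 starts of CCND3, and GGGCGG before CDKN1A, CDKN2B, CDKN2D and starts of CDKN2C and CCND3.

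In SU-DHL-4 CDKN2A went from 8.98, 8.86 and 9.16 under DMSO to 8.60, 8.07 and 8.39 under Ento+AZD. The groups did not overlap. The log2 fold change was -0.65 (SE 0.153, adjusted p = 0.0466), a 1.57-fold difference that passed on p but was under the fold minimum. With no minimum, 2 of the 10 genes passed in this comparison (CDKN1B and CDKN2A), against 2.36% of rows. Under AZD alone the values were 8.89, 8.18 and 8.87, with a change of -0.35 (adjusted p = 0.399), and under Ento 9.04, 8.43 and 9.06, with a change of -0.16 (adjusted p = 0.815). Replicate 2 was again the lowest array in each treatment, and 82.6% of the spread within groups followed the number. Without the number in the fit the Ento+AZD change had an adjusted p of 0.255, and it was 0.0823, 0.259 and 0.546 when replicate 1, 2 or 3 was left out.

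In DG-75 the CDKN2A values went from 9.67, 9.77 and 9.44 under DMSO to 9.24, 9.17 and 9.12 under AZD, again without overlap (-0.45, SE 0.147, adjusted p = 0.189). Under Ento+AZD they were 9.26, 9.45 and 9.04 (-0.38, adjusted p = 0.227). Ento alone left them at 9.60, 9.59 and 9.80 (0.04). Neither BET inhibitor comparison passed in DG-75 by itself. With all 24 arrays in 1 additive model over both lines, CDKN2A changed by -0.40 under AZD (SE 0.104, adjusted p = 0.0294) and by -0.51 under Ento+AZD (SE 0.104, adjusted p = 0.003), both under the fold minimum. A difference between the lines in the response to Ento+AZD was not detectable (-0.27, 95% interval -0.69 to 0.15, adjusted p = 0.886).

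CDKN2B, CDKN2C and CDKN2D, which encode the INK4 proteins p15, p18 and p19, were not called in any comparison. CDKN2B arrays ranged from 5.64 to 6.34 in SU-DHL-4 and from 5.85 to 6.47 in DG-75, and its changes against DMSO lay between -0.28 and 0.11. CDKN2C, known from the exit of maturing plasma cells from the cell cycle, ranged from 8.15 to 8.74 and from 7.86 to 8.49. Its changes lay between -0.09 and 0.11 in SU-DHL-4 and between -0.25 and -0.11 in DG-75. CDKN2D ranged from 6.16 to 7.03 and from 5.84 to 6.61, and its largest change was -0.37 under Ento in SU-DHL-4 (adjusted p = 0.592).

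Among the D cyclins CCND3 had all AZD and all Ento+AZD arrays below all DMSO arrays in each line, although no line passed by itself. SU-DHL-4 arrays read 7.84, 7.85 and 7.98 under AZD and 7.74, 7.84 and 7.74 under Ento+AZD, all below the DMSO values of 7.99, 8.41 and 8.04. Under AZD this order was barely held, with the highest AZD array at 7.9849 and the lowest DMSO array at 7.9862. Such an order was found in 12.9% of rows under AZD and 16% under Ento+AZD in SU-DHL-4. The shares in DG-75 were 14.6% and 14%. The changes of -0.25 (SE 0.143) and -0.37 (SE 0.143) had adjusted p-values of 0.538 and 0.25. In DG-75 the arrays read 9.24, 9.22 and 9.50 under AZD and 9.34, 9.32 and 9.13 under Ento+AZD, all below the DMSO values of 9.54, 9.79 and 9.64. The changes of -0.34 (SE 0.147) and -0.40 (SE 0.147) had adjusted p-values of 0.33 and 0.206.

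Under Ento alone CCND3 stood slightly above DMSO, at 8.24 ± 0.12 for SU-DHL-4 and 9.85 ± 0.16 for DG-75 (SD, n = 3), with groups that overlapped. Ento+AZD differed from Ento by -0.59 in DG-75 (SE 0.147, adjusted p = 0.0765) and by -0.47 in SU-DHL-4 (SE 0.143, adjusted p = 0.251), without overlap in either line, against 13.7% of rows lying lower for DG-75 and 7.15% for SU-DHL-4. Over both lines CCND3 changed by -0.39 under Ento+AZD (SE 0.0917, adjusted p = 0.00992), below the fold minimum. This value was -0.25 with quantile normalization (adjusted p = 0.126) and -0.28 with array medians subtracted (adjusted p = 0.0666). The change of -0.30 under AZD had an adjusted p of 0.067. Its spread within groups was small, with an SD of 0.14 in each line, which placed it at percentile 9.78 of rows for SU-DHL-4 and 14.1 for DG-75.

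CCND2 and CCND1 were not called in any treatment comparison. CCND2 in SU-DHL-4 was 6.52, 6.41 and 6.10 under AZD, below all DMSO arrays (-0.33, adjusted p = 0.595), and 6.03, 6.69 and 5.96 under Ento+AZD (-0.45, SE 0.210, adjusted p = 0.366). Replicate 2 thus stood apart from the other two under Ento+AZD, and the change was -0.74 without replicate 2 (adjusted p = 0.265) and -0.20 without replicate 3 (adjusted p = 0.945). In DG-75 its changes lay between -0.11 and 0.06. CCND1 in DG-75 read 4.51, 4.09 and 3.73 under DMSO and 3.71, 3.51 and 3.62 under AZD (-0.50, SE 0.196, adjusted p = 0.285), while in SU-DHL-4 it changed by 0.14. The highest AZD array of CCND1 in DG-75 (3.7129) lay close to the lowest DMSO array (3.7331). The CCND1 row was low, with a mean at percentile 33.7 of rows for DG-75 and 34.2 for SU-DHL-4.

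Counted together, 2 of the 10 genes had all AZD arrays below all DMSO arrays in SU-DHL-4 (CCND2 and CCND3), against 12.9% of rows, and 3 had all Ento+AZD arrays below (CDKN1B, CDKN2A and CCND3), against 16%. In DG-75, 3 genes lay below DMSO under AZD (CDKN2A, CCND1 and CCND3), against 14.6% of rows, and CDKN1C above, against 4.5%. Under Ento+AZD CCND3 lay below, against 14%, and CDKN1C above, against 4.79%. Under Ento 0 of 10 lay apart from DMSO in either line, against 9.33% and 3.56% of rows lying below and 4.05% and 3.09% lying above in SU-DHL-4 and DG-75. The median change of the 10 genes was -0.16, -0.10 and -0.30 under Ento, AZD and Ento+AZD in SU-DHL-4, beside -0.06, -0.08 and -0.08 for all rows. In DG-75 it was -0.02, -0.22 and -0.11, beside -0.00, -0.06 and -0.07.

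None of the 10 was called against DMSO in DG-75, where 0.00391%, 0.18% and 0.833% of rows were called by limma under Ento, AZD and Ento+AZD. An unadjusted p under 0.05 was reached by 0, 4 and 2 of them. Between treatments 0 of 10 were called in SU-DHL-4 for Ento+AZD against Ento, Ento+AZD against AZD and AZD against Ento, beside 0.0821%, 0.0274% and 0.379% of rows, with 4, 0 and 2 at an unadjusted p under 0.05. In DG-75 0 of 10 were called in the same comparisons, beside 0.657%, 0% and 0.344%, with 2, 0 and 3. In the limma model over both lines 0 of 10 were called, beside 0.00782% of rows under Ento, 0.254% under AZD and 0.856% under Ento+AZD, with 3 genes each at an unadjusted p under 0.05. Without the fold minimum 2 passed under AZD (CDKN1B and CDKN2A), beside 4.66% of rows, and 3 under Ento+AZD (CDKN1B, CDKN2A and CCND3), beside 8.49%. With quantile normalization or array medians subtracted, of these only CDKN2A under Ento+AZD still passed (adjusted p = 0.0258 and 0.0145). The CDKN1B value in that model was -0.78 under AZD and -0.70 under Ento+AZD. It averages changes of -1.37 and -1.39 in SU-DHL-4 with -0.19 and -0.01 in DG-75, although the difference between the lines did not pass.

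**Figure D3:**
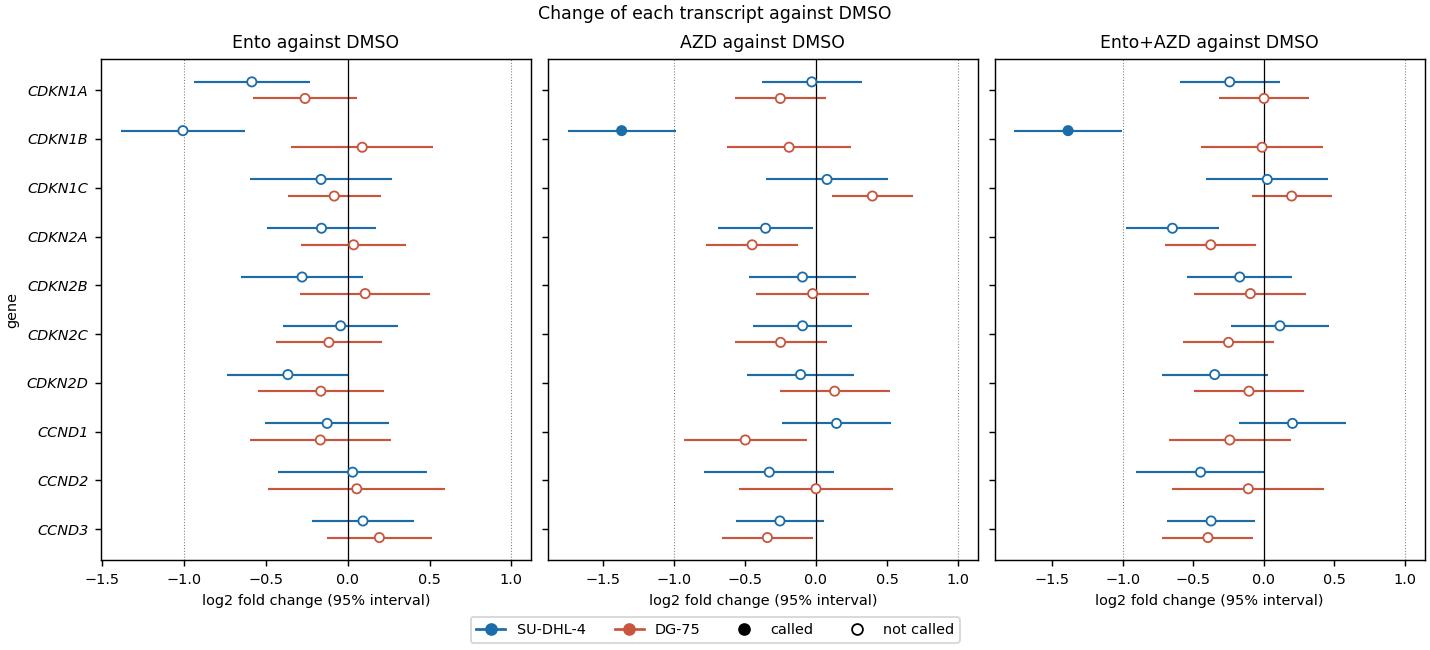
Log2 fold change against DMSO (horizontal axis, point with 95% interval) of the 10 genes in SU-DHL-4 (blue) and DG-75 (red) for Ento, AZD and Ento+AZD; filled points were called and dotted lines mark a change of 1. CDKN1B of SU-DHL-4 under AZD and Ento+AZD is filled, at -1.37 and -1.39.

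Of 22 CDKs, RB family, DP, E2F and cyclin E genes, 5 fell in SU-DHL-4 under Ento+AZD: CDK1, the mitotic kinase (-1.60, SE 0.252, adjusted p = 0.00815), CDK2, the partner of cyclin E (-1.36, adjusted p = 0.00884), the E2F factors E2F2 (-1.46, adjusted p = 0.012) and E2F8, and CCNE2. Over all rows 1.09% were called lower. The median of the list was -0.44, beside -0.08 for all rows, and 17 of 22 values were negative. The 5 calls became 0 with the replicate number left out of the limma fit and 0 without replicate 3, 2 without replicate 2 (CDK1 and E2F8) and 4 without replicate 1. In DG-75, 3 of 22 fell, namely CDK1 (-1.27, adjusted p = 0.0182), E2F2 (-1.03, adjusted p = 0.0215) and E2F8 (-1.68, adjusted p = 0.0215), against 0.708% of rows called lower, with a median of -0.52 beside -0.07. These 3 calls were kept without the number in the fit, and 0 were left without any 1 of the replicate numbers. Under Ento alone 0 of 22 were called by limma in either line (2 and 0 at an unadjusted p under 0.05 in SU-DHL-4 and DG-75), and under AZD alone also 0 (8 and 12), beside 0.0508% and 0.00391% of rows under Ento and 0.18% in each line under AZD. Between the DMSO groups 3 of the 22 were called, beside 7.2% of rows: RB1, the retinoblastoma protein's gene, which was higher for SU-DHL-4 (1.06, adjusted p = 6.42e-07), TFDP2, an E2F dimerisation partner, which was lower (-3.61, adjusted p = 3.68e-08), and MNAT1, also lower, a subunit of the CDK-activating kinase (-1.06, adjusted p = 0.0105).

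Of 19 genes that act on the stability of CDK inhibitors and D cyclins, 2 fell in SU-DHL-4 under Ento+AZD, against 1.09% of rows. SKP2, the ubiquitin ligase subunit that marks p27 for degradation, went from 8.96 ± 0.23 under DMSO to 8.58 ± 0.42 under Ento, 8.26 ± 0.15 under AZD and 7.88 ± 0.34 under Ento+AZD (SD, n = 3). Its change under Ento+AZD was -1.08 (SE 0.162, adjusted p = 0.00668). DTL, part of the ligase that degrades p21 during S phase, fell by 1.85 (SE 0.256, adjusted p = 0.00567). Neither call was left without the replicate number in the fit or without replicate 3. DTL alone was called without replicate 2, and both were called without replicate 1. In DG-75, where 0.708% of rows were called lower, DTL fell by 1.18 (adjusted p = 0.0214) and CKS1B, the cofactor of SKP2, by 1.00 (SE 0.142, adjusted p = 0.0162). Both calls were kept without the number in the fit, and neither was left without any 1 of the replicate numbers. Between the DMSO groups 2 of the 19 were called, beside 7.2% of rows, the deubiquitinases USP2 (1.21, adjusted p = 0.00212) and USP28 (-1.42, adjusted p = 1.93e-05). Under Ento+AZD the list had a median of -0.03 for SU-DHL-4 and -0.19 for DG-75, beside -0.08 and -0.07 for all rows. The SU-DHL-4 median had no settled sign, at -0.18 without replicate 1 and 0.04 without replicate 2.

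None of 19 measured transcription and chromatin regulators of these genes, among them the FOXO factors, EZH2 and other Polycomb genes, was called by limma against DMSO in either line. Over all rows 0.0508%, 0.18% and 1.19% were called for SU-DHL-4 under Ento, AZD and Ento+AZD and 0.00391%, 0.18% and 0.833% for DG-75, so that a count of 0 is near the background. Their medians under Ento+AZD were -0.11 and -0.05, with 2 and 3 genes at an unadjusted p under 0.05.

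All 20 proliferation readouts had negative changes under Ento+AZD in each line, and 14 were called in SU-DHL-4 (median -1.32) and 4 in DG-75 (median -0.85), against 1.09% and 0.708% of rows called lower. Under AZD alone all 20 were negative as well, with medians of -0.70 and -0.69. By limma 0 of them were called in either line (17 and 20 at an unadjusted p under 0.05), beside 0.18% of rows in each. Under Ento alone 0 were called (1 and 0), beside 0.0508% and 0.00391% of rows, with medians of -0.26 and -0.01. In SU-DHL-4 the smallest adjusted p belonged to AURKA (-1.33), CCNA2 (-1.57) and FOXM1 (-1.57), genes of mitotic entry. In DG-75 it belonged to AURKA (-1.05, adjusted p = 0.0162) and the replication helicase genes MCM4 (-1.07, adjusted p = 0.0169) and MCM6 (-1.05, adjusted p = 0.0196). Without replicate 2 the median in SU-DHL-4 was -0.84 and 0 of 20 were called by limma. Without replicate 3 and with the replicate number left out of the fit 0 were called as well, at medians of -1.41 and -1.32, and 12 were called without replicate 1 (median -1.55). In DG-75 the count was 4 without the number in the fit and 0 without any 1 of the replicate numbers, with medians between -0.99 and -0.70. These alternatives were added for the lists after the data were seen.

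**Figure D4:**
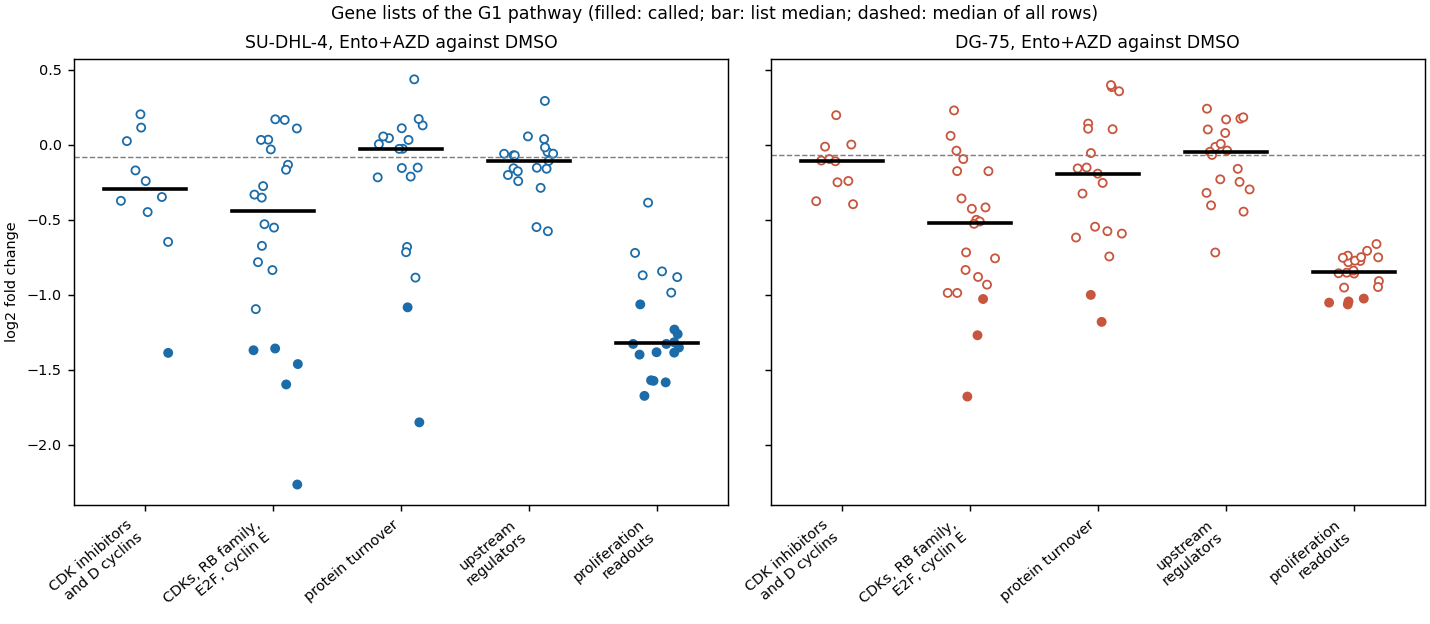
Log2 fold changes under Ento+AZD against DMSO (vertical axis) of the genes in 5 lists, in SU-DHL-4 (left) and DG-75 (right); filled points were called, bars are list medians and the dashed line is the median of all rows. The proliferation readouts lie lowest (medians -1.32 and -0.85), and CDKN1B at -1.39 is the filled point among the CDK inhibitors and D cyclins of SU-DHL-4.

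Of 8 genes near CDKN2A on its chromosome arm, 3 were lower in the DMSO group of SU-DHL-4, which was also the direction of CDKN2A, against 4.11% of rows called lower: MLLT3 (-4.12, adjusted p = 9.85e-15), the antisense RNA CDKN2B-AS1 (-1.83, adjusted p = 4.44e-05) and KLHL9 (-1.0002, adjusted p = 0.0489), which lay at both thresholds. MTAP, the metabolic gene beside CDKN2A, differed by -0.89 (adjusted p = 0.00137), under the fold minimum. By limma 0 of the 8 were called against DMSO under any treatment in either line, beside 0.00391% to 1.19% of rows, and 0 had an unadjusted p under 0.05. CDKN2B-AS1 overlaps CDKN2B on the other strand, and CDKN2B itself differed by 0.04 between the lines.

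For CDKN1B, the gene called against DMSO, the transcripts whose values ran most alike over the 24 arrays after each line's mean was subtracted were H4C4, a histone gene (Pearson r = 0.884), LINC00339 (0.882) and LOC101929140 (0.882). Within SU-DHL-4 r was 0.941, 0.92 and 0.948 over 12 arrays and within DG-75 0.503, 0.731 and 0.561. These arrays share treatments and replicate numbers, so the values describe this table only.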

How the data were processed

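Expression was taken from the deposited table of 24 Clariom D arrays. Its values, read as log2 because that is the scale of robust multi-array average (RMA) normalization, were made by the authors with RMA in limma (background correction, quantile normalization and 1 value per probe set), and rows were annotated to symbols with affycoretools. Genome build and package versions are not given in the sources used here, the table holds no detection values, and 0 columns were left unused. Groups and replicate numbers came from the labels.

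In R 4.3.3 with limma 3.58.1, each line was fitted with the 4 treatments and the replicate number, which stood in for a batch term that the study's methods name without saying what the batch was. Differences between the lines in response used all 24 arrays with replicate number within line, the model over both lines was additive, and the DMSO levels were compared without the number. The Benjamini-Hochberg adjustment ran over 25575 rows, with calls made below 0.05 and beyond a log2 change of 1 in either direction. The fits were tested on simulated data in which the effect of the replicate number was drawn from the same spread for all rows. That setting does not cover a gene whose spread follows the number as closely as that of CDKN1B in SU-DHL-4. The alternatives were a fit without the number, other sets of arrays, a filter on low rows, quantile or median scaling, another variance prior, no fold minimum, limma's treat test, 1 row per symbol, and omission of arrays or replicate numbers.

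The members and gene lists were chosen with earlier results of these data known. All 10 members are named. Of a list, up to 3 called genes per direction and comparison with the smallest adjusted p are given with values where the text describes that comparison. The regulators of transcription were not described between the DMSO groups, and MTAP, CCNE2 and the cell type markers were named outside the rule. Sequences are from RefSeq (GRCh38.p14). Results of 1 further gene list are not reported here.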

Additional observations from a re-analysis of the deposited data

How the results depend on the processing

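Over the alternatives 379 counts of called genes were unchanged within 1.5 times and 24 moved, and of the values of single genes 3959 kept their side of the threshold, 20 lost it, 16 gained it and 0 reversed. Most comparisons had 0 called genes to start with, so these totals say little about the calls themselves. In SU-DHL-4 the CDKN1B call held in 7 of 19 alternatives under AZD and 17 of 19 under Ento+AZD. Between the DMSO groups the calls of CDKN1B and CCND2 held in 12 of 15 each and that of CCND3 in 15 of 15. Every count of called genes here is of the 10 genes. In SU-DHL-4 under Ento (0 called) it was 1, CDKN1B, with all 24 arrays in the fit, with rows under the median left out and with a trended and robust variance prior. Under AZD (1 called) it was 0 without the replicate block, with only the 2 groups compared, with quantile normalization, with array medians subtracted and with limma's treat test, and between 0 and 1 with arrays or numbers left out. Under Ento+AZD (1 called) it was 0 without the replicate block, 2 with no fold minimum, and between 0 and 1 with arrays or numbers left out. For the difference between the lines under Ento+AZD (0 called) it was 1 with quantile normalization and with the trended and robust prior, and between 0 and 1 with arrays left out. With no fold minimum it was 2 for AZD and 3 for Ento+AZD over both lines (0 and 0 called), and 5 between the DMSO groups (3 called).

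Whether replicate numbers pair the arrays was not shown: in SU-DHL-4 the deviations of same-numbered arrays from their group means correlated at -0.111 to 0.154 for number 1, 0.0848 to 0.394 for number 2 and 0.146 to 0.263 for number 3, and in DG-75 at -0.355 to 0.344 over all numbers. Leaving the replicate block out took the calls over all rows in SU-DHL-4 from 13 to 1 under Ento, 46 to 9 under AZD and 304 to 45 under Ento+AZD, and in DG-75 from 1 to 0, 46 to 39 and 213 to 208. Subtracting array medians moved the median change of all rows in SU-DHL-4 under Ento+AZD from -0.08 to 0.05, and CDKN1B under AZD then changed by -1.25 (adjusted p = 0.0584). Under AZD the 46 calls over all rows in SU-DHL-4 became 0 with quantile normalization and with array medians subtracted. The cause of these shifts was not tested.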
